A study of Mus musculus with 9 samples.

Results

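Genes of glycolysis and of the hypoxia response were followed through mouse embryonic stem cells that had lost β-catenin. They were chosen by name, from glucose entry through the enzymes of glycolysis to lactate and the mitochondrial gate, and from the hypoxia-inducible factor Hif1a to its known targets. Of the 35 genes, 33 were measured among 19938 genes, 22 of them of glycolysis and 11 of the hypoxia axis, each by the brightest array feature that carries that gene symbol alone. Gpi1 and Eno1 were not analysed here.

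RNA came from 3 groups of embryonic stem cells with 3 arrays each. Null Eα cells lacked both β-catenin alleles and stably expressed a fusion of E-cadherin to α-catenin. Null cells lacked both alleles and had no fusion. Flox cells, the control, had 1 allele deleted and the other floxed, so every group lacked at least 1 allele. All cells shared the mixed S129S6-C57BL/6 background and grew on gelatin in 15% FCS with 1000 U/ml LIF until sub-confluent. The promoter that drives the fusion, the number of clones and the oxygen level of the cultures are not given in the sources used here. The replicates are labelled biological, but nothing says that they were separate lines or cultures, so p-values measure the spread between these samples.

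Glycolysis splits glucose into pyruvate, and its pace is set mainly at glucose uptake, at hexokinase and at phosphofructokinase. Pyruvate is either reduced to lactate by lactate dehydrogenase or passed to the mitochondrial pyruvate dehydrogenase complex, which the Pdk kinases switch off. HIF-1α protein is destroyed when oxygen is plentiful, because the Egln prolyl hydroxylases mark it for degradation. When oxygen falls it pairs with Arnt and raises transcription of many glycolytic genes, so both sets of genes often move together. Mouse embryonic stem cells are known for active glycolysis alongside respiration.

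Values were the deposited log2 RMA values of a whole-transcript array, on which 1 unit is a 2-fold difference. A gene was called where limma's adjusted p, over all 19938 genes, was under 0.05. The 3 groups differed widely. Of all genes tested, 55.2% were called between null and flox cells, 63.7% between null Eα and flox cells and 31.7% between null Eα and null cells. The arrays also differed in spread, with interquartile ranges of 3.21 to 3.37 in null Eα cells, 3.41 to 3.46 in null cells and 3.75 to 3.84 in flox cells. Ctnnb1, the deleted gene, read 52.5% of its flox level in null Eα cells and 63.7% of it in null cells, and both falls were called (limma adjusted p = 2.66e-06 and 2.82e-05). Whether its feature covers the deleted exons is not given in the sources used here. Of 10 embryonic stem cell markers, 6 fell and 1 rose in null Eα cells against flox cells, and 9 fell and 1 rose in null cells against flox cells. Of 13 measured fibroblast markers, 11 rose in each of these comparisons. The summed fibroblast marker level on the log2 scale was 11.81 to 12.16 in null Eα cells, 12.85 to 13.14 in null cells and 9.27 to 9.50 in flox cells, while that of the stem cell markers was 14.46 to 14.50 in null Eα cells, 13.11 to 13.30 in null cells and 14.71 to 14.73 in flox cells. The array scale has no true zero, so no marker can be called absent. The part of these shifts in the results below was not tested, and in RNA from whole cultures fewer cells of a type and less RNA per cell cannot be told apart.

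Glycolytic and hypoxia genes did not move as a block when β-catenin was lost. In null cells the hexokinase gene Hk2, the glycolysis enzyme gene Pgk1, the glycolytic activator gene Pfkfb3 and the collagen hydroxylase gene P4ha2 rose at least 2-fold. The phosphofructokinase gene Pfkp, the lactate dehydrogenase gene Ldhb, the kinase gene Pdk1 and the HIF hydroxylase gene Egln3 fell at least 2-fold. In null Eα cells all 8 of these differences from flox were smaller. Each of the 8 genes was also called between null Eα and null cells, where 31.7% of all genes were called. The 8 genes were picked by their null difference from flox, and these comparisons share arrays, so both results were favoured by that choice. Pdha1 was higher, and Eno3 lower, in null Eα cells than in either other group.

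Between null and flox cells 13 of the 33 genes were called higher, where 26.5% of all genes were, and 10 were called lower, where 28.7% were. The median difference of the 33 genes was 0.06 on the log2 scale, against 0.06 over all genes and -0.16 over the brightest 4985 of them. In those brightest genes 27.4% were called higher and 46.4% lower. At least 2-fold, 8 genes were called, 4 in each direction, and the share over all genes was 15.3%. Between null Eα and flox cells 9 genes were called higher and 13 lower, against 32.1% and 31.6% of all genes. Here the median was -0.22, against 0.07 over all genes and -0.30 over the brightest genes, of which 19.0% were called higher and 53.4% lower. Only 4 genes differed at least 2-fold, 1 higher and 3 lower, against 12.0% of all genes. Between null Eα and null cells 5 genes were called higher and 12 lower, against 13.6% and 18.1% of all genes, with a median of -0.20 against 0.05 over all genes and -0.10 over the brightest genes, of which 14.9% were called higher and 32.9% lower. Called at least 2-fold, 2 were higher and 3 lower, against 4.83% of all genes.

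With each chromosome's own shift removed, the split moved towards higher calls, to 15 higher and 6 lower between null Eα and flox cells and to 18 higher and 7 lower between null and flox cells. The brighter genes of chromosome 6, which carries Slc2a3, Hk2, Tpi1, Eno2 and Ldhb, had a median difference of -0.51 between null Eα and flox cells, against -0.29 over the brighter genes of all chromosomes. Chromosome 11, with Aldoc, Eno3 and P4ha2, had -0.65, and chromosome 8, with Ankrd37 and Egln1, had -0.73. Between null and flox cells the same medians were -0.13, -0.20 and -0.64, against -0.16 over all chromosomes. The part of these chromosome-wide shifts in single genes was not tested beyond that alternative.

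**Figure D1:**
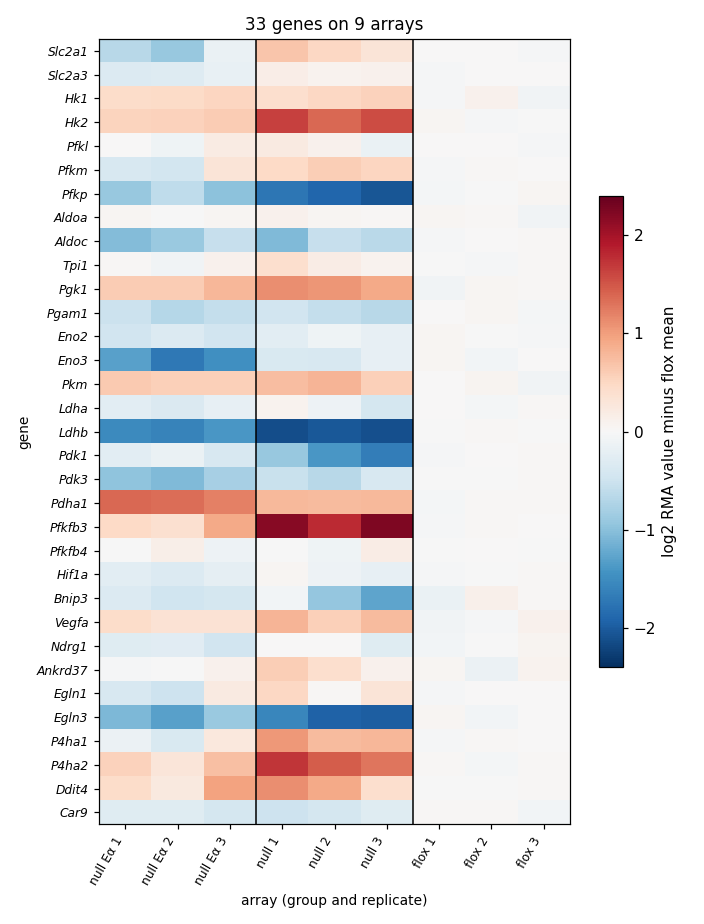
Log2 RMA value minus the flox mean for each of the 33 measured genes (rows) on each of the 9 arrays (columns, null Eα, null and flox from left to right), red above and blue below the flox mean. Hk2, Pfkfb3 and P4ha2 are red on the null arrays, Pfkp, Ldhb and Egln3 are blue on them, and the null Eα columns are mostly paler.

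Promoter windows of 250 bases before to 50 bases after the start were read from RefSeq (GRCm38.p6) for 31 of the 33 genes, 9 of which had several windows. The core of the hypoxia response element was searched as ACGTG or GCGTG on both strands, which reads CACGT or CACGC on the printed strand. A CACGTG would count on each strand. At least 1 match lay in a window of 29 of the 31 genes, or 93.5%, against 46.7% of 27025 genes with a window. Counted by window, 81.4% of the 43 windows of these genes held a match, against 43.8% of all 32851 windows. The background was not matched to the 31 genes for base composition or expression level. All 13 genes called higher in null cells and all 10 called lower held a match, as did 6 of the 8 uncalled genes with a window, so the match did not separate the directions. The 29 genes include some chosen as known HIF targets. The following 6 windows belong to the genes with 1 window that rose or fell at least 2-fold in null cells, 3 in each direction, and are shown so that genes that moved in opposite directions can be compared. Each is written 5′ to 3′ along the gene, with matches in capitals.
Hk2, chr6:82774405-82774704, minus strand: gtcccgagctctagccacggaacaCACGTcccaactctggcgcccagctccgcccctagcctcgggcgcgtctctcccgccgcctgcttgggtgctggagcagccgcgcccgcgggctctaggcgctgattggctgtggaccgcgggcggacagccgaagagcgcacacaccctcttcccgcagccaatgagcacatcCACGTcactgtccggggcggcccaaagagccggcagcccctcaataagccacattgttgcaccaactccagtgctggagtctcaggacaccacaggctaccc
Pfkp, chr13:6648722-6649021, minus strand: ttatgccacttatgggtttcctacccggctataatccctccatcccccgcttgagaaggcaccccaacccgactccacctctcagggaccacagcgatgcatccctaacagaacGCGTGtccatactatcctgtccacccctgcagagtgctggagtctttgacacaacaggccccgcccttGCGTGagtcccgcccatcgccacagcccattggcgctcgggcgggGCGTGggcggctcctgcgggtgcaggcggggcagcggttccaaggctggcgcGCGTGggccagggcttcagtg
Pgk1, chrX:106186850-106187149, plus strand: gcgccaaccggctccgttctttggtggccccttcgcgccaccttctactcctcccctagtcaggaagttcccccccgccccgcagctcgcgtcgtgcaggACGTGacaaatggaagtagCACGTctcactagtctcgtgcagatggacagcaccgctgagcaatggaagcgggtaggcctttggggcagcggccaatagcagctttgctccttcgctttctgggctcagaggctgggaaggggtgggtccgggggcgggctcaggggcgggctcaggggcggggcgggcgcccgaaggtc
Ldhb, chr6:142507908-142508207, minus strand: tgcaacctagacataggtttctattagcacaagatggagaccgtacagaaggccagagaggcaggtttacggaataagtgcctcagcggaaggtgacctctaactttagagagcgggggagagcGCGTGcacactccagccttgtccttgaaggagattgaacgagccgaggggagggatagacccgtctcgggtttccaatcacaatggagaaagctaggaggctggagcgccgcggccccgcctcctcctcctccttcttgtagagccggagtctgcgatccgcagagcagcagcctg
Egln3, chr12:54203825-54204124, minus strand: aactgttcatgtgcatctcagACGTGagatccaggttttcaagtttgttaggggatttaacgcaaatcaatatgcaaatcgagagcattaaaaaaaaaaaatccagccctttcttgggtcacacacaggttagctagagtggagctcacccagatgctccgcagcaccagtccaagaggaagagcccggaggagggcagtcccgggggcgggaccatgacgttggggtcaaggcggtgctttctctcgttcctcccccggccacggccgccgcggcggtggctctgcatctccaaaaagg
P4ha2, chr11:54100674-54100973, plus strand: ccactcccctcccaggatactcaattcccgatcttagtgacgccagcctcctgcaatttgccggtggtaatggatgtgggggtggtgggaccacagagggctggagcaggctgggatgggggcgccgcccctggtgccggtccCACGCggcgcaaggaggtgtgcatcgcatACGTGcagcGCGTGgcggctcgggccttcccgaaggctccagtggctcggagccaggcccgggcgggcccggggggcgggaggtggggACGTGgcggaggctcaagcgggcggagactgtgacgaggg
Hk2 and Pgk1, which rose, held 2 matches each, and P4ha2, which rose, held 4. Pfkp, which fell, also held 4, and Ldhb and Egln3, which fell, held 1 each. A match describes letters in these windows and not a bound site.

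The main glucose transporter gene moved in opposite directions in the mutant groups. Slc2a1, the widely expressed glucose transporter GLUT1, read 11.37, 11.12 and 11.87 in null Eα cells, 12.69, 12.53 and 12.35 in null cells, and 12.05, 12.03 and 12.01 in flox cells. All null arrays lay above all flox arrays and all null Eα arrays below them, with null Eα replicate 3 closest to flox. The log2 difference was 0.49 ± 0.16 between null and flox cells (SE, limma adjusted p = 0.0269) and -0.57 ± 0.16 between null Eα and flox cells (adjusted p = 0.0118). Set against null cells, the null Eα level differed by -1.07 ± 0.16, a 2.10-fold fall (adjusted p = 0.000893). The smaller rise in null cells missed the threshold when null replicate 1, null replicate 2 or any single flox array was left out (differences of 0.41 to 0.50, adjusted p 0.0595 to 0.0971), and the fall against flox missed it with chromosome shifts removed (-0.33, adjusted p = 0.0646). Slc2a3, the neuronal-type transporter GLUT3, fell in null Eα cells against flox cells (-0.27 ± 0.07, adjusted p = 0.00618) and against null cells (-0.40 ± 0.07, adjusted p = 0.0018). Its difference between null and flox cells was 0.12 ± 0.07 and was not called, but it was with a trended prior (adjusted p = 0.0326) and with chromosome shifts removed (0.29, adjusted p = 0.00504). With chromosome shifts removed Slc2a3 changed sign between null Eα and flox cells and was called higher there (0.19, adjusted p = 0.0300). It was then not called against null cells, at -0.09.

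The hexokinases trap glucose in the cell by phosphorylating it. Hk2, the inducible form, read 9.70, 9.72 and 9.78 in null Eα cells, 10.81, 10.55 and 10.73 in null cells, and 9.21, 9.13 and 9.16 in flox cells. The 3 groups were fully separate, with null highest and null Eα in between. Hk2 rose 2.89-fold in null cells against flox cells (log2 difference 1.53 ± 0.08, adjusted p = 1.13e-07). It rose 1.48-fold in null Eα cells against flox cells (0.57 ± 0.08, adjusted p = 0.000168), which became 0.87 with quantile normalization and 1.03 with chromosome shifts removed. Against null cells the null Eα level fell by 0.96 ± 0.08 on the log2 scale (adjusted p = 2.15e-05). Hk1, the constitutive form, could not be given a direction. Its brighter feature, by which it stands among the higher calls, gave 0.49 ± 0.08 between null and flox cells and its other feature gave -0.60, and their average was -0.05. For null Eα minus flox the same features gave 0.47 and -0.38.

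Phosphofructokinase commits sugar to glycolysis, and its 3 genes behaved differently. Pfkp, the platelet-type subunit, read 9.78, 10.08 and 9.69 in null Eα cells, 8.95, 8.79 and 8.64 in null cells, and 10.64, 10.69 and 10.74 in flox cells. No groups overlapped, and null arrays were lowest. Pfkp fell 3.72-fold in null cells against flox cells (-1.89 ± 0.11, adjusted p = 2.46e-07) and 1.79-fold in null Eα cells (-0.84 ± 0.11, adjusted p = 0.000108). Null Eα cells exceeded null cells by 1.06 ± 0.11 on the log2 scale (adjusted p = 8.86e-05). Pfkm, the muscle-type subunit, rose in null cells against flox cells by 0.53 ± 0.17 (adjusted p = 0.0193) and fell in null Eα cells against null cells by 0.70 ± 0.17 (adjusted p = 0.00913). That rise missed the threshold without flox replicate 1 (0.51, adjusted p = 0.0553) and without null replicate 2 (0.50, adjusted p = 0.0598). In null Eα cells Pfkm read 9.27, 9.20 and 9.96, and the third array lay apart from the others. Its difference from flox, -0.17 ± 0.17, was not called with all arrays but was -0.41 without that array (adjusted p = 0.000946). Pfkl, the liver-type subunit, read 10.34 to 10.70 over all 9 arrays and was called in no comparison, with differences of 0.05, 0.03 and -0.02 for null minus flox, null Eα minus flox and null Eα minus null. With chromosome shifts removed Pfkl was called higher than flox in null cells (0.25, adjusted p = 0.0451) and in null Eα cells (0.29, adjusted p = 0.0205).

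Pfkfb enzymes make and break fructose 2,6-bisphosphate, the strongest allosteric activator of phosphofructokinase. Pfkfb3, the form with the strongest bias to making it, read 7.20, 7.12 and 7.64 in null Eα cells, 8.92, 8.51 and 8.98 in null cells, and 6.70, 6.77 and 6.73 in flox cells. The null arrays stood far above the rest, and the null Eα arrays lay between them and flox. Pfkfb3 had the largest rise of the 33 genes in null cells, 4.21-fold against flox (2.07 ± 0.15, adjusted p = 1.1e-06). In null Eα cells it rose by 0.59 ± 0.15 against flox (adjusted p = 0.00662), and it fell 2.80-fold against null (-1.48 ± 0.15, adjusted p = 7.09e-05). Pfkfb4 read 5.96 to 6.26 and was called in no comparison.

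Genes of the middle steps split. Aldoa, the main aldolase, and Tpi1, triose phosphate isomerase, were called in no comparison, with differences between null and flox cells of 0.06 and 0.22. With chromosome shifts removed both were called higher than flox, Aldoa by 0.28 for null and 0.27 for null Eα (adjusted p = 0.00664 and 0.00728) and Tpi1 by 0.38 and 0.48 (adjusted p = 0.00434 and 0.000859). Tpi1 was also called higher in null cells after quantile normalization (0.30, adjusted p = 0.0200), with a trended prior (0.22, adjusted p = 0.0289) and without null replicate 3 (0.29, adjusted p = 0.0315). Aldoc, the brain-type aldolase, differed from flox by -0.76 ± 0.15 in null cells (adjusted p = 0.00133) and by -0.82 ± 0.15 in null Eα cells (0.000754), and this last value became -0.19, not called, with chromosome shifts removed. Pgam1, phosphoglycerate mutase, fell against flox in both, with differences of -0.57 ± 0.08 for null cells (adjusted p = 0.000132) and -0.59 ± 0.08 for null Eα cells (0.000109), which became -0.32 and -0.29 with chromosome shifts removed. Pgam1 has 3 array features of nearly equal value, so reads from near-identical copies cannot be told apart.

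Pgk1 makes the first ATP of the pathway and is a classical HIF target. It read 12.16, 12.17 and 12.36 in null Eα cells, 12.68, 12.62 and 12.47 in null cells, and 11.48, 11.61 and 11.58 in flox cells. The groups did not overlap. Pgk1 rose 2.05-fold in null cells (1.03 ± 0.09, adjusted p = 3.03e-06) and 1.59-fold in null Eα cells (0.67 ± 0.09, adjusted p = 8.74e-05) against flox cells. It fell in null Eα cells against null cells by 0.36 ± 0.09 (adjusted p = 0.00957), and that call was lost with chromosome shifts removed (-0.19, adjusted p = 0.0728). Its 3 features were also nearly equal in value, so signal from near-identical copies cannot be told apart.

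Both enolase genes measured here fell in null Eα cells. Eno3, the muscle-type enolase, read 7.55, 7.15 and 7.39 in null Eα cells, 8.50, 8.48 and 8.67 in null cells, and 8.90, 8.80 and 8.88 in flox cells. The null Eα arrays were all far below the others. Eno3 fell 2.82-fold in null Eα cells against flox cells (-1.50 ± 0.10, adjusted p = 1.06e-06), or -0.86 with chromosome shifts removed, and 2.27-fold against null cells (-1.18 ± 0.10, adjusted p = 2.95e-05). The null difference from flox was small (-0.31 ± 0.10, adjusted p = 0.026). It missed the threshold after quantile normalization (-0.11), with chromosome shifts removed (-0.07), and without flox replicate 1 (-0.29), flox replicate 3 (-0.30), null replicate 1 (-0.29) or null replicate 2 (-0.28). Eno2, the neuronal enolase, fell by 0.42 ± 0.07 in null Eα cells against flox cells (adjusted p = 0.000612) and by 0.24 ± 0.07 against null cells (adjusted p = 0.0311). With chromosome shifts removed these became 0.05 and 0.07, and the call against null cells was also lost when flox replicate 2 (-0.24), null replicate 2 (-0.20), null replicate 3 (-0.24), null Eα replicate 1 (-0.21) or null Eα replicate 3 (-0.22) was left out. Its null difference from flox, -0.19 ± 0.07, was not called (adjusted p = 0.0509), but 7 of 17 alternatives called it, among them median centring (-0.22, adjusted p = 0.0263), and leaving out null replicate 2 (-0.22, adjusted p = 0.0465), null Eα replicate 2 (0.0420) or null Eα replicate 3 (0.0475).

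Pkm makes pyruvate in the last step. It read 12.18, 12.12 and 12.13 in null Eα cells, 12.29, 12.36 and 12.13 in null cells, and 11.56, 11.62 and 11.47 in flox cells. Both mutant groups lay above flox and overlapped each other. Pkm rose 1.64-fold in null cells (0.71 ± 0.08, adjusted p = 2.91e-05) and 1.51-fold in null Eα cells (0.59 ± 0.08, adjusted p = 0.000128) against flox cells. Its second feature gave 0.44 and 0.39. The null Eα difference from null was -0.12 ± 0.08 (adjusted p = 0.282). The array value does not separate the M1 and M2 splice forms.

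Ldha and Ldhb encode the muscle-type and heart-type subunits of lactate dehydrogenase. Ldhb read 9.44, 9.37 and 9.57 in null Eα cells, 8.84, 8.93 and 8.85 in null cells, and 10.95, 10.99 and 10.96 in flox cells. The groups were separate by more than the whole range within any of them. Ldhb had the largest fall of the 33 genes in null cells, 4.27-fold against flox (-2.09 ± 0.07, adjusted p = 8.84e-09). It fell 2.83-fold in null Eα cells (-1.50 ± 0.07, adjusted p = 1.35e-07). Null Eα cells exceeded null cells by 0.59 ± 0.07 (adjusted p = 0.000262), and its second feature gave -2.06, -1.48 and 0.58 for the 3 comparisons. Ldha read 12.17, 12.08 and 12.23 in null Eα cells, 12.51, 12.30 and 12.01 in null cells, and 12.43, 12.38 and 12.45 in flox cells. The null arrays of Ldha spanned the values of both other groups. Ldha was called in no comparison, with -0.14 ± 0.11 between null and flox cells (adjusted p = 0.305), -0.26 ± 0.11 between null Eα and flox cells (adjusted p = 0.0691) and -0.12 ± 0.11 between null Eα and null cells (adjusted p = 0.466). Several alternatives called Ldha lower in null Eα cells than in flox cells, namely median centring (-0.34, adjusted p = 0.0268), and, at -0.26, fitting these groups alone (0.0150), a trended prior (0.0404) and leaving out null replicate 1 (0.0314) or 3 (0.0203).

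Pdk1 and Pdk3 are kinases that inactivate pyruvate dehydrogenase, and Pdha1 is the subunit they phosphorylate. Pdk1 read 9.71, 9.81 and 9.59 in null Eα cells, 9.05, 8.56 and 8.31 in null cells, and 9.94, 9.97 and 9.99 in flox cells. The null arrays were low and widely spread, and the null Eα arrays lay just below flox. Pdk1 fell 2.51-fold in null cells against flox cells (-1.33 ± 0.16, adjusted p = 3.71e-05) and rose 2.09-fold in null Eα cells against null cells (1.07 ± 0.16, adjusted p = 0.000648). Its null Eα difference from flox, -0.26 ± 0.16, was not called (adjusted p = 0.162), though it was when these groups were fitted alone (0.0224) or null replicate 1 was left out (0.0316). Pdk3 fell against flox cells in both mutants, with differences of -0.52 ± 0.10 for null cells (adjusted p = 0.000889) and -0.94 ± 0.10 for null Eα cells (1.6e-05), or -0.33 and -0.62 after quantile normalization. It also fell by 0.42 ± 0.10 in null Eα cells against null cells (adjusted p = 0.00799), which missed the threshold with chromosome shifts removed (-0.24, adjusted p = 0.0501).

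Pdha1 read 11.35, 11.32 and 11.17 in null Eα cells, 10.75, 10.72 and 10.74 in null cells, and 9.91, 10.00 and 9.99 in flox cells. It was the single gene of the 33 whose null Eα mean lay above both other means. Pdha1 rose 2.48-fold in null Eα cells against flox cells (1.31 ± 0.07, adjusted p = 2.54e-07) and 1.46-fold against null cells (0.54 ± 0.07, adjusted p = 0.000371). In null cells it rose 1.71-fold against flox cells (0.77 ± 0.07, adjusted p = 6.79e-06).

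**Figure D2:**
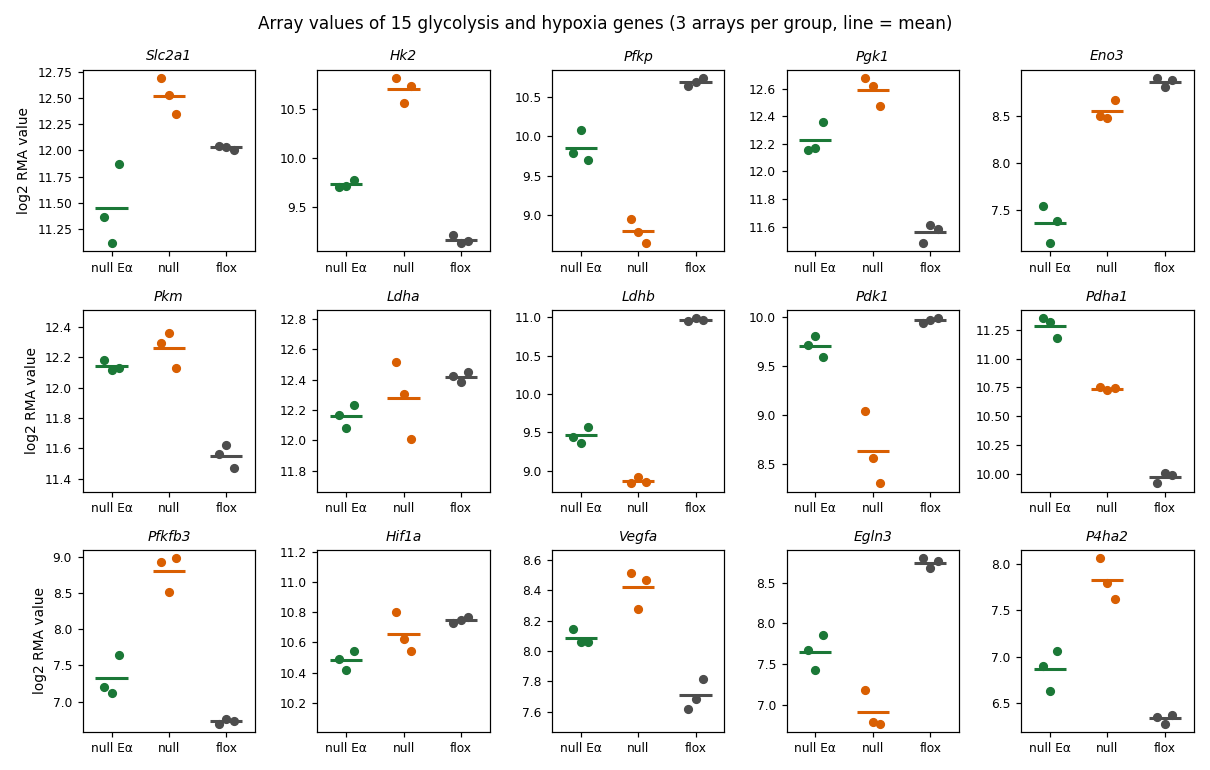
Log2 RMA values of 15 genes on the 9 arrays, 1 panel a gene, with null Eα, null and flox from left to right, a point for each array and a line at the mean of 3, and a vertical axis that starts above 0 and differs between panels. The groups do not overlap for Hk2, Pfkp, Ldhb and Egln3, while the null points of Ldha span the other groups.

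The factor at the head of the hypoxia axis moved little. Hif1a read 10.49, 10.42 and 10.54 in null Eα cells, 10.80, 10.63 and 10.55 in null cells, and 10.73, 10.75 and 10.77 in flox cells. The null arrays overlapped flox, and the null Eα arrays lay below both. The difference was -0.09 ± 0.08 between null and flox cells (adjusted p = 0.375) and -0.17 ± 0.08 between null Eα and null cells (adjusted p = 0.125). Hif1a fell in null Eα cells against flox cells by 0.26 ± 0.08 (adjusted p = 0.0163). The call was lost after quantile normalization (-0.07), with chromosome shifts removed (-0.10) and without null Eα replicate 2 (-0.23, adjusted p = 0.0517). HIF-1α is controlled mostly as a protein, which was not measured here.

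Egln1 and Egln3 encode oxygen sensors that hydroxylate HIF-1α, and both are themselves known HIF targets. Egln3 read 7.67, 7.43 and 7.86 in null Eα cells, 7.18, 6.80 and 6.77 in null cells, and 8.80, 8.67 and 8.76 in flox cells. All 3 groups were separate, with null lowest. Egln3 fell 3.55-fold in null cells (-1.83 ± 0.13, adjusted p = 1.05e-06) and 2.13-fold in null Eα cells (-1.09 ± 0.13, adjusted p = 5.61e-05) against flox cells, and null Eα cells exceeded null cells by 0.74 ± 0.13 (adjusted p = 0.00208). Egln1 was called in no comparison with all arrays, at 0.27 ± 0.18, -0.22 ± 0.18 and -0.49 ± 0.18 for null minus flox, null Eα minus flox and null Eα minus null. Its direction depended on the setting. With chromosome shifts removed Egln1 was called higher than flox in null cells (0.90, adjusted p = 0.000574) and in null Eα cells (0.50, adjusted p = 0.0147), and quantile normalization also called it higher in null cells (0.45, adjusted p = 0.0477). Its null Eα arrays read 7.18, 7.07 and 7.79, and without the third of them Egln1 was called lower than flox (-0.44, adjusted p = 0.0111) and lower than null (-0.71, adjusted p = 0.00152). Other settings also called it lower in null Eα cells than in null cells, among them median centring (-0.54, adjusted p = 0.0426) and leaving out null replicate 2 (-0.62, adjusted p = 0.0395).

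The downstream targets of HIF also split. Vegfa, the angiogenic growth factor, read 8.14, 8.06 and 8.06 in null Eα cells, 8.52, 8.28 and 8.47 in null cells, and 7.62, 7.69 and 7.82 in flox cells. The groups did not overlap, with null highest. Vegfa rose 1.64-fold in null cells (0.71 ± 0.09, adjusted p = 4.79e-05) and 1.30-fold in null Eα cells (0.38 ± 0.09, adjusted p = 0.00349) against flox cells. It fell by 0.33 ± 0.09 in null Eα cells against null cells (adjusted p = 0.0149), a call lost after quantile normalization (-0.22) and without null replicate 3 (-0.31, adjusted p = 0.0521).

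P4ha1 and P4ha2 encode the catalytic subunits of collagen prolyl 4-hydroxylase, which stabilises newly made collagen. P4ha2 read 6.90, 6.63 and 7.07 in null Eα cells, 8.06, 7.79 and 7.62 in null cells, and 6.36, 6.28 and 6.37 in flox cells. No groups overlapped. P4ha2 rose 2.80-fold in null cells (1.49 ± 0.13, adjusted p = 4.19e-06) and 1.44-fold in null Eα cells (0.53 ± 0.13, adjusted p = 0.00538) against flox cells, or by 1.16 in null Eα cells with chromosome shifts removed, and fell by 0.96 ± 0.13 in null Eα cells against null cells (adjusted p = 0.00042). P4ha1 rose in null cells by 0.87 ± 0.14 (adjusted p = 0.000427), did not pass the test between null Eα and flox cells (-0.09 ± 0.14), and fell in null Eα cells against null cells by 0.95 ± 0.14 (adjusted p = 0.000731). These genes act in collagen production, and the summed fibroblast marker level given above was highest in null cells too. In null Eα cells that sum was also above flox, while P4ha1 was not called there. Any link between them was not tested.

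Ddit4, which restrains mTORC1 under stress, rose in both mutants, with differences from flox of 0.81 ± 0.20 for null cells (adjusted p = 0.00612) and 0.55 ± 0.20 for null Eα cells (0.0345). The rise in null Eα cells missed the threshold without null Eα replicate 3 (0.34), null Eα replicate 1 (0.60) or flox replicate 1, 2 or 3 (0.55, 0.54 and 0.57), and with median centring (0.47, adjusted p = 0.0699). Quantile normalization gave 0.87. Ankrd37, a small ankyrin-repeat gene known as a HIF target, rose in null cells by 0.36 ± 0.12 (adjusted p = 0.0228). That call was lost without null replicate 1 (0.25), null replicate 2 (0.35) or flox replicate 2 (0.30), and the difference was 0.99 with chromosome shifts removed. Its null Eα difference from flox was 0.03 ± 0.12 and was called with chromosome shifts removed (0.74, adjusted p = 0.000242). The null Eα level, -0.34 ± 0.12 from null (adjusted p = 0.0504), was called lower in several settings, among them median centring (-0.38) and leaving out null replicate 3 (-0.46) or null Eα replicate 3 (-0.38). Ndrg1, a stress-response gene, fell in null Eα cells against flox cells by 0.34 ± 0.10 (adjusted p = 0.0121), a call lost after quantile normalization (-0.03) and with chromosome shifts removed (-0.06). Against null cells Ndrg1 differed by -0.25 ± 0.10 (adjusted p = 0.0824) and was called with median centring (-0.29, adjusted p = 0.0437) and without null replicate 3 (-0.35, adjusted p = 0.0199).

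Bnip3, which drives removal of mitochondria, read 9.05, 8.90 and 8.97 in null Eα cells, 9.32, 8.46 and 8.12 in null cells, and 9.23, 9.51 and 9.42 in flox cells. Null replicate 1 lay within the flox range, so the groups overlapped. Bnip3 fell by 0.75 ± 0.24 in null cells (adjusted p = 0.0229), but the call was lost after quantile normalization (-0.56), with chromosome shifts removed (-0.52), and without null replicate 2 (-0.66), null replicate 3 (-0.49), flox replicate 2 (-0.69) or flox replicate 3 (-0.73). Without null replicate 1, the null Eα level was called higher than null (0.68, adjusted p = 0.00375). Its null Eα difference from flox was -0.41 ± 0.24 (adjusted p = 0.157), called when these groups were fitted alone (0.00677) and without null replicate 1 (0.0103). The other feature of Bnip3 gave -1.40 for null minus flox and -1.03 for null Eα minus flox. Both were called in a limma fit over all array features (adjusted p = 8.33e-05 and 0.000546). The average of both features was called lower in null Eα cells than in flox cells (-0.72, adjusted p = 0.00755). Car9, the hypoxia-induced carbonic anhydrase, read 4.57 to 5.09 on all arrays, near the dim end of the scale. Its differences from flox were -0.40 ± 0.08 for null cells and -0.33 ± 0.08 for null Eα cells (adjusted p = 0.00162 and 0.00449), and both calls were lost with chromosome shifts removed (-0.22 and -0.09).

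**Figure D3:**
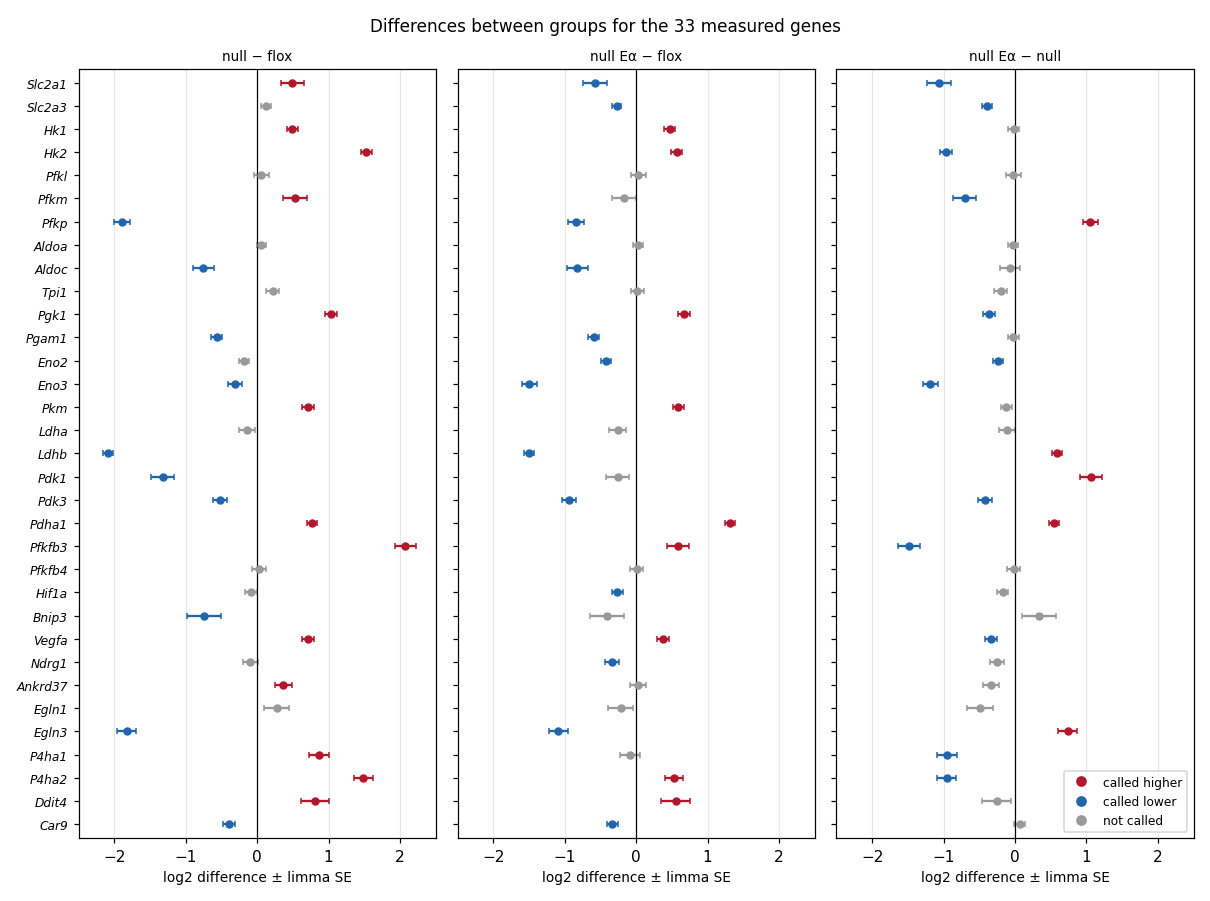
Log2 differences with limma's SE (bars) for the 33 genes (rows) between null and flox, null Eα and flox, and null Eα and null, red where called higher, blue where called lower and grey where not called. Pfkfb3 at 2.07 and Ldhb at -2.09 mark the ends for null against flox, and most called genes sit nearer to 0 for null Eα against flox, with Pdha1 and Eno3 among those that do not.

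The null Eα mean lay between the null and flox means for 19 of the 33 genes, below both for 13 and above both for 1. Over all genes the same shares were 36.6% between, 25.3% below both and 38.1% above both. The null and null Eα comparisons share the flox arrays, and both comparisons of null Eα share its own. On single arrays, all null values lay above all flox values for 16 of the 33 genes and below them for 10. Over all genes, 35.5% lay wholly above and 31.9% wholly below in that comparison. All null Eα values lay above all flox values for 9 genes and below them for 16, against 35.9% and 33.6% of all genes. They lay above all null values for 5 and below them for 13, against 22.0% and 21.0% of all genes.

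Null Eα replicate 3 stood apart from the other null Eα arrays. It was the array nearest to the null mean for 20 of the 33 genes, against 6 for replicate 1 and 7 for replicate 2. That count was not made over all genes. The trait was not limited to the 33 genes, since over all array features its mean correlation with the null arrays was 0.979, against 0.966 to 0.969 for the others. Without it, 8 genes were called higher and 15 lower between null Eα and flox cells, and 5 higher and 13 lower between null Eα and null cells. The median SD of the 33 genes was 0.11 in null Eα cells, 0.15 in null cells and 0.04 in flox cells, against 0.13, 0.10 and 0.08 over all genes. Bnip3, Pdk1 and Ddit4 varied most among null arrays, and Pfkm, Egln1 and Slc2a1 among null Eα arrays.

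Close relatives in the set often had unlike log2 differences. Between null and flox cells that of Pfkp was 1.95 below that of Pfkl, that of Ldhb 1.95 below that of Ldha, and that of Egln3 2.10 below that of Egln1. The difference of Pfkfb3 was 2.05 above that of Pfkfb4, and that of P4ha2 was 0.62 above that of P4ha1. Pdk1 was 0.80 below Pdk3 in this measure, whereas between null Eα and null cells their differences were 1.07 and -0.42. Taking the difference within each array, the null and flox values did not overlap for all 9 pairs tested, these 6 included. Over single genes, 35.5% lay wholly above and 31.9% wholly below in that comparison. No such share was computed for other gene pairs. An exact two-sided permutation test of 3 against 3 arrays cannot go below 0.1, which each of these pairs reached, and the adjusted p over 27 tests of 9 pairs was 0.113, so no pair passed the test.

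Other genes of the same pathways, in lists chosen by name, were also divided. Over all genes 26.5% rose and 28.7% fell in null cells and 32.1% rose and 31.6% fell in null Eα cells against flox cells, with medians of 0.06 and 0.07, and each list below is set beside these shares. Of 18 further glycolysis genes 6 rose and 5 fell in null cells, and 6 rose and 6 fell in null Eα cells, against flox cells. That is 33.3% up and 27.8% down in null cells and 33.3% each way in null Eα cells, near the shares of all genes, and the medians were 0.09 and -0.08. Galm, which interconverts the anomers of galactose and glucose, fell in both mutants, with differences from flox of -3.22 ± 0.13 for null and -1.75 ± 0.13 for null Eα (adjusted p = 2.32e-08 and 1.91e-06). Bpgm, which makes 2,3-bisphosphoglycerate, rose in null cells by 1.26 ± 0.16 (adjusted p = 6.54e-05), and its null Eα difference was -0.03. Pgm1, as the array's annotation names it, rose by 1.22 ± 0.20 in null cells (adjusted p = 0.000398), and Pgm2 differed from flox by -1.35 ± 0.13 in null Eα cells (limma adjusted p = 1.19e-05). Both symbols have been swapped between mouse phosphoglucomutase genes in older annotations.

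Fructose bisphosphatases run phosphofructokinase's step backwards. Of 4 genes that control this step, none rose and 3 fell in null cells (median -0.90), and none rose and 2 fell in null Eα cells (median -0.44), against flox cells. Over all genes 28.7% and 31.6% fell in these comparisons. Fbp2 was lower in both mutants, at -1.37 ± 0.16 for null and -1.02 ± 0.16 for null Eα (adjusted p = 3.93e-05 and 0.00037).

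All 15 measured genes that move pyruvate and lactate or act on pyruvate dehydrogenase were called between null and flox cells, 7 higher and 8 lower, where 55.2% of all genes and 73.8% of the brightest genes were called. In null Eα cells against flox cells 4 rose and 7 fell. That is 26.7% higher and 46.7% lower, where 32.1% and 31.6% of all genes were, and 19.0% and 53.4% of the brightest. The medians were -0.63 for null and -0.29 for null Eα, against -0.16 and -0.30 over the brightest genes. Mpc1, a subunit of the mitochondrial pyruvate carrier, fell against flox, with differences of -2.42 ± 0.12 for null and -1.68 ± 0.12 for null Eα (adjusted p = 9.04e-08 and 1.47e-06). The kinase gene Pdk2 fell, with differences from flox of -1.14 ± 0.12 for null and -1.52 ± 0.12 for null Eα (adjusted p = 1.19e-05 and 2.01e-06). Its relative Pdk4 gave -1.22 ± 0.17 and -1.67 ± 0.17 (adjusted p = 0.000121 and 1.5e-05). Bsg, the chaperone of the lactate transporters, fell by 1.23 ± 0.07 in null cells (adjusted p = 1.89e-07). With Pdk1 and Pdk3, all 4 genes of the kinase family fell in null cells against flox cells. The opposing phosphatase genes also fell, Pdp1 with differences of -0.67 ± 0.10 for null and -0.73 ± 0.10 for null Eα (adjusted p = 0.000225 and 0.000141) and Pdp2 with -0.76 ± 0.19 and -1.44 ± 0.19 (adjusted p = 0.00591 and 9.37e-05). Dld, a subunit of the pyruvate dehydrogenase complex, rose, with differences of 1.18 ± 0.09 for null and 0.68 ± 0.09 for null Eα (adjusted p = 1.33e-06 and 9.03e-05).

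In the pentose phosphate branch 1 of 9 genes rose and 6 fell in null cells (median -0.44), and 1 rose and 3 fell in null Eα cells (median -0.11), against flox cells. The lower shares, 66.7% and 33.3%, stood beside 28.7% and 31.6% of all genes and 46.4% and 53.4% of the brightest. Tktl1, a transketolase relative, fell in both, with differences of -1.35 ± 0.12 for null and -1.25 ± 0.12 for null Eα. H6pd, which works in the endoplasmic reticulum, gave -1.11 ± 0.08 for null and -1.17 ± 0.08 for null Eα. Adjusted p was at most 1.18e-05 for both genes in both comparisons.

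Of 15 genes that encode partners and regulators of HIF-1α, 1 rose and 8 fell in null cells (median -0.32), and 1 rose and 7 fell in null Eα cells (median -0.24), against flox cells. The lower shares were 53.3% and 46.7%, against 28.7% and 31.6% of all genes but near the 46.4% and 53.4% of the brightest. Epas1, the HIF-2α gene, fell in both mutants, with differences from flox of -2.54 ± 0.19 for null (adjusted p = 1.36e-06) and -0.89 ± 0.19 for null Eα (0.00237). Arnt, the partner of both HIF-α proteins, gave -0.43 ± 0.11 for null (adjusted p = 0.00834) and -1.06 ± 0.11 for null Eα (2.48e-05).

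Of 33 further hypoxia targets 15 rose and 14 fell in null cells, and 10 rose and 14 fell in null Eα cells, against flox cells, with medians of -0.07 and -0.14. Higher and lower shares were 45.5% and 42.4% in null cells, against 26.5% and 28.7% of all genes, and 30.3% and 42.4% in null Eα cells, against 32.1% and 31.6%. Anxa2, a membrane-binding annexin that many cell types express, rose, with differences from flox of 3.35 ± 0.10 for null and 2.30 ± 0.10 for null Eα (adjusted p = 2.82e-09 and 6.61e-08). Adm, the vasodilator adrenomedullin, rose, with differences from flox of 1.99 ± 0.27 for null and 2.00 ± 0.27 for null Eα (adjusted p = 0.00012 and 0.000127). Ak4, a mitochondrial adenylate kinase, fell, with differences from flox of -3.28 ± 0.21 for null and -2.68 ± 0.21 for null Eα (adjusted p = 3.94e-07 and 2.2e-06). Car12, a carbonic anhydrase, fell by 2.22 ± 0.12 in null cells (adjusted p = 1.37e-07). As among the 11 members of the hypoxia axis, of which 5 rose and 3 fell in null cells, targets of HIF were thus found in both directions.

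**Figure D4:**
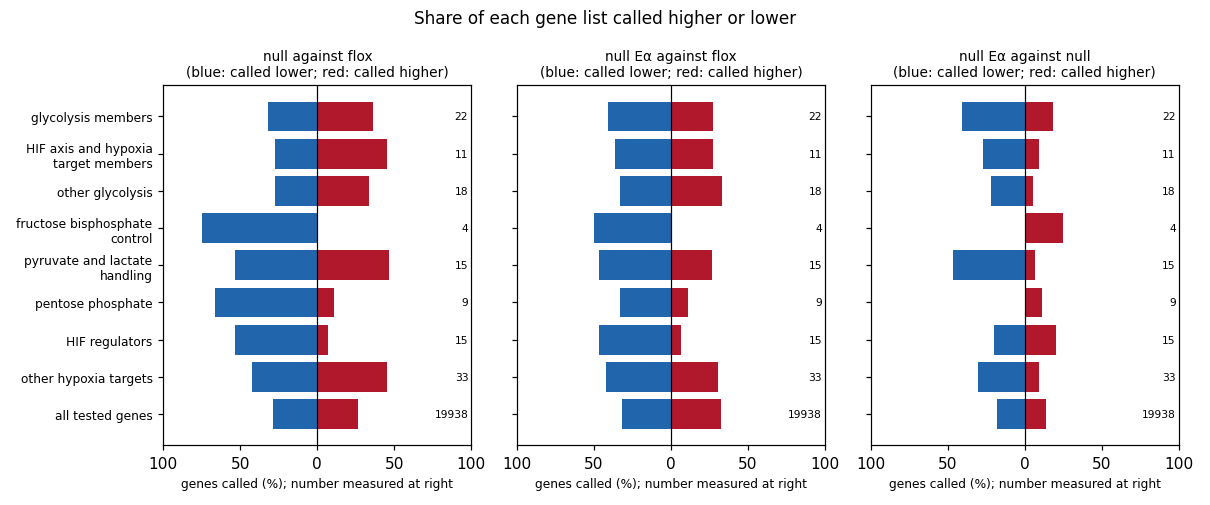
Percentage of each gene list called higher (red, to the right) or lower (blue, to the left) in the 3 comparisons, with the number of genes measured beside each bar and all 19938 tested genes in the last row. The members of glycolysis and of the hypoxia axis extend to both sides, like all tested genes, while HIF regulators and the pentose phosphate branch lie mostly to the left in the comparisons against flox.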

How the data were processed

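Total RNA of 9 samples was hybridised to an Affymetrix whole-transcript mouse array. The authors deposited log2 values, made with RMA per the submitters' processing notes; whether all arrays were normalized together, the version and the annotation are not given in the sources used here. Array number limits the precision. Features with 1 gene symbol were kept, the brightest per gene. One limma fit (version 3.58.1, R 4.3.3) was run on the deposited log2 values (3 group means, all 9 arrays, no block, 6 residual and 4.04 prior degrees of freedom), with Benjamini-Hochberg adjustment over 19938 genes. In simulated data for null against flox cells, 93.0% of 2-fold and 100% of 4-fold changes among 200 changed genes were recovered, with 7 false calls. Only these 200 genes changed in it, with independent noise and none of the spread or chromosome shifts seen here. Its rates may thus not hold for these data. Members got all 9 values where called at 2-fold or more in any comparison, or where listed as key steps (Hif1a, Slc2a1, Hk2, Pfkp, Pkm, Ldha, Pdk1, Vegfa, Pgk1, Eno1). Genes of further lists were named where called at 2-fold or more against flox, at most the 3 largest per list and comparison. Dld, Pdp1, Pdp2, Bnip3's 9 values, the arrays given for Pfkm and Egln1, and the pair comparisons shown were chosen after values were seen. Members and lists were chosen with earlier results of these data known. Alternatives were quantile normalization, median centring, chromosome centring (subtracting, per array, the median deviation of each chromosome's brighter genes), dropping dim genes, averaging features, fitting 2 groups, a trended robust prior, a replicate block and leaving out each array. Promoter motifs were counted with Python 3.11.15 and pandas 2.3.3.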

Additional observations from a re-analysis of the deposited data

How the results depend on the processing

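Every call of at least 2-fold among the 33 genes stayed a call in the same direction in all alternatives run. Some of these differences shrank below 2-fold, among them Egln3 between null Eα and flox cells (to -0.79). Eno3 between null Eα and null cells shrank to -0.80. Of all calls, 16 of 23 between null and flox cells, 13 of 22 between null Eα and flox cells and 12 of 17 between null Eα and null cells held throughout. The number of members called changed beyond 1.5 times under 1 setting, chromosome centring. It gave 15 higher and 6 lower between null Eα and flox cells. By construction it removes shifts shared by a chromosome, and with them the shift shared by all chromosomes. The replicate block changed 1 call, that of Egln1 between null Eα and null cells (-0.49, adjusted p = 0.0410). Over all genes the block gave 11298 calls between null and flox cells, 12935 between null Eα and flox cells and 6602 between null Eα and null cells. Replicate numbers were not taken to pair samples, since nothing states that they mark a shared culture. Deviations from group means correlated at -0.03 to 0.26 between same-numbered arrays, above 0.1 in 3 of 9 pairs. Between differently numbered arrays they correlated at -0.20 to 0.14, above 0.1 in 1 of 18 pairs. A shared replicate effect was not tested beyond the block fit above. Called differences turned sign for Hk1 between null and flox cells with features averaged (-0.054), for Slc2a3 (0.19) and Eno2 (0.046) between null Eα and flox cells, and for Eno2 (0.068) between null Eα and null cells, the last 3 with chromosomes centred. Of these only Slc2a3 was called with its new sign (limma adjusted p = 0.0300). The other sign changes were of uncalled differences, of which Egln1 between null Eα and flox cells became called (0.50, adjusted p = 0.0147), and the cause was not tested. Between null and flox cells, quantile normalization gave Pfkfb4 -0.011, Hif1a 0.014 and Ndrg1 0.11, median centring gave Pfkfb4 -0.013, and chromosome centring gave Ldha 0.081, Hif1a 0.00 and Ndrg1 0.15. Leaving out single arrays gave Pfkl -0.024 to 0.16, Pfkfb4 -0.056 to 0.088 and Ndrg1 -0.15 to 0.0062. Between null Eα and flox cells, quantile normalization gave Pfkm 0.12, Pdk1 0.017, Pfkfb4 -0.062, Egln1 0.010 and P4ha1 0.24. Median centring gave Pfkl -0.052, Aldoa -0.056, Tpi1 -0.068, Pfkfb4 -0.076 and Ankrd37 -0.057, and chromosome centring gave Pfkm 0.11, Egln1 0.50 and P4ha1 0.17. Leaving out single arrays gave Ankrd37 -0.042 to 0.070, Aldoa -0.013 to 0.054, Pfkfb4 -0.059 to 0.066, P4ha1 -0.26 to 0.053, Pfkl -0.051 to 0.10 and Tpi1 -0.033 to 0.066. Between null Eα and null cells, quantile normalization gave Hk1 0.0030, Pfkl 0.069, Aldoc 0.057, Pgam1 0.013 and Car9 -0.0067. Chromosome centring gave Hk1 0.051, Pfkl 0.043, Aldoc 0.32, Tpi1 0.10, Pgam1 0.030 and Pfkfb4 0.046, and averaged features gave Hk1 0.10. Leaving out single arrays gave Pfkl -0.13 to 0.054, Pgam1 -0.076 to 0.025, Ldha -0.25 to 0.0040, Aldoc -0.22 to 0.035, Hk1 -0.058 to 0.019 and Pfkfb4 -0.083 to 0.062.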
